A study of Homo sapiens with 21 samples.

Results

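Gene expression was measured for the subunits, activators, inhibitor and assembly chaperones of the proteasome in hTERT-HPNE cells under oxidative stress and under DNA damage. The genes were taken by symbol, as every row beginning with PSM, a letter from A to G and a number whose values varied between libraries. This rule found 48 genes among the 19694 genes that varied, in a table of 23368 genes. They are called proteasome genes below, although PSMC3IP, which is counted with them, matches by name only and is no proteasome subunit. A further matching row, PSMA8, a core subunit known from testis, was listed at 0 in every library and could not be tested. hTERT-HPNE is an established nontransformed human pancreatic cell line immortalized with telomerase, and its growth medium held puromycin and EGF in all groups. Cells received fresh medium and 300 µM H2O2, an oxidant, or 400 ng/ml neocarzinostatin (NCS), a radiomimetic drug that breaks both DNA strands, and poly(A) RNA was sequenced after 4, 8 or 24 h. Untreated cells were taken at time 0, so the 7 groups of 3 biological replicates made 21 libraries. No untreated group at 4, 8 or 24 h was analysed here, and in every comparison with untreated cells the treatment and the hours in fresh medium cannot be told apart. The H2O2 and NCS groups are matched in time.

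The proteasome degrades proteins that carry ubiquitin. Its core is a barrel of alpha rings (PSMA genes), which gate the entrance, around beta rings (PSMB genes), of which PSMB5, PSMB6 and PSMB7 hold the active sites. The regulatory cap has a ring of ATPases (PSMC genes) that unfold the substrate and a set of non-ATPase subunits (PSMD genes) that bind ubiquitin and cut it off. PSMB8, PSMB9 and PSMB10 replace the 3 catalytic subunits in the immunoproteasome, which is known for making peptides for MHC class I. PSME genes encode alternative caps, PSMF1 a core-binding inhibitor, PSMG genes the chaperones that build the core, and PSMD5, PSMD9 and PSMD10 chaperones of the cap base. The factor NFE2L1 raises most subunit genes together when proteasome activity is short.

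The values are regularized log2 counts (rLog), on which a difference of 1 is a doubling of normalized reads. The transformation pulls differences towards 0, and most of all at low counts. Read depth is unknown, because the table holds no counts. In bulk RNA, fewer cells that express a gene and less of its RNA per cell cannot be told apart. Library medians lay between 7.14 and 7.19. H2O2 8 h replicate 2 stood farthest from the other libraries of its group, at a distance of 13.8 on the log2 scale over all varying genes against 7.84 to 11.2 elsewhere, and counts of called proteasome genes at 8 h of H2O2 are given with and without it. The labelled origin was checked on marker genes. NES, VIM and KRT18 averaged 12.03, 17.03 and 11.62, KRT19 averaged 0.60, EPCAM -1.76, and the acinar and endocrine genes PRSS1, PTF1A, INS and PDX1 were listed at 0. Fibroblast-type genes were high, with COL1A1 at 17.82 and FN1 at 20.04, the endothelial gene CDH5 was at -2.04 and the blood gene PTPRC at 0.93, while CD68, a macrophage marker that other cells also express, averaged 10.11. Most proteasome genes were strongly expressed. Apart from PSMB11, the mean of each exceeded that of 46.6% (PSMB9) to 99.4% (PSMD2) of all varying genes. PSMG4, PSMC3IP, PSMB10, PSMG3 and PSMB8 lay in the middle range, from 54.2% (PSMG4) to 65.2% (PSMB8). Of the 48 genes, 22 overlap a gene on the other strand and 7 one on the same strand in a GENCODE annotation, and 21 have named pseudogenes, so that their reads could be split where the counting did not separate them. The strand setting of the counting is not given in the sources used here.

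Promoters of 4 genes are shown because the genes read highest in different groups, PSMB10 at 4 h of H2O2, PSMD12 at 8 h, PSMB9 at 24 h and PSME2 at 24 h of NCS. Each is the 250 bases before the RefSeq start in GRCh38.p14, printed in the direction of the gene, while the submitters' processing notes name hg19. Capitals mark 1 matched motif in each, which is TGACNNNGC (the core of the antioxidant response element bound by NFE2L1 and NFE2L2) in PSMD12 and, on the opposite strand, in PSMB9, and GAAANNGAA (the core of sites bound by interferon regulatory factors) in PSMB10 and PSME2. The matches begin at -21 from the start in PSMB10, -165 in PSMD12, -148 in PSMB9 and -28 in PSME2, and PSME2 also holds a TGACNNNGC match at -175, left in lower case.
PSMB10, chr16:67936851-67937100, minus strand: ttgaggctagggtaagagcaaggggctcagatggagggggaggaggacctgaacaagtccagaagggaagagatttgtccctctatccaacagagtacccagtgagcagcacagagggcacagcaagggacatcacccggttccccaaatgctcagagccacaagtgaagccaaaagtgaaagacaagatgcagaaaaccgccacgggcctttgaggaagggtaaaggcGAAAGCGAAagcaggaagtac
PSMD12, chr17:67366578-67366827, minus strand: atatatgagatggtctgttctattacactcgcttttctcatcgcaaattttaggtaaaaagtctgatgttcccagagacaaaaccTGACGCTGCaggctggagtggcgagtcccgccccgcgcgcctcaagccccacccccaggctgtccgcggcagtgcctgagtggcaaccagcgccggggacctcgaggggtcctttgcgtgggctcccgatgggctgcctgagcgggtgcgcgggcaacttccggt
PSMB9, chr6:32853942-32854191, plus strand: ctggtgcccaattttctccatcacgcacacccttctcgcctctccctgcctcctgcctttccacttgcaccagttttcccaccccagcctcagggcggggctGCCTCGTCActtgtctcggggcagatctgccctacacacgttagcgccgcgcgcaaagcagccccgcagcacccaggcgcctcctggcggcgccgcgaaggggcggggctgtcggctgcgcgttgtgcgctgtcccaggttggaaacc
PSME2, chr14:24146611-24146860, minus strand: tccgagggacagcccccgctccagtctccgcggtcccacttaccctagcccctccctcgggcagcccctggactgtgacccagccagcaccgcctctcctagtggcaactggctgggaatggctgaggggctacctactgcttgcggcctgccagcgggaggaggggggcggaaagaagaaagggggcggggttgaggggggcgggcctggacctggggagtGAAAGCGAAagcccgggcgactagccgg

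Promoters of 42 of the 48 genes were found in the RefSeq table, and none was found for PSMA7, PSMB1, PSMB6, PSMB7, PSMD4 and PSMG3. On either strand, TGACNNNGC was present in 13 of the 42 and in 13.22% of 27305 genes, GAAANNGAA in 5 (PSMA4, PSMB10, PSMB4, PSME2 and PSMG4) and in 8.41%, and CCAAT in 20 and in 37.0%. By promoter rather than by gene, the shares over all 35116 promoters were 10.91%, 6.88% and 32.01%. The 13 genes with TGACNNNGC were PSMA4, PSMB3, PSMB9, PSMC5, PSMD12, PSMD3, PSMD5, PSMD9, PSME1, PSME2, PSME4, PSMG1 and PSMG2. A match is a string of letters and was not tested as a site.

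After 4 h of H2O2 the proteasome genes were mostly higher than in untreated cells. In one limma fit of all 21 libraries, with adjustment over the 19694 genes and an adjusted p under 0.05 as the call, 29 of 48 genes were higher and 1, PSMD5, was lower. These are 60.4% and 2.08% of them, where 26.2% of all genes were higher and 19.7% lower. Among the 31 subunits of the standard proteasome, 23 were higher and 0 lower, with a median log2 difference of 0.11 against 0.0038 over all genes, or about 1.08-fold. Every beta subunit (6 of 7 with the library medians aligned or under quantile normalization), 5 of 7 alpha subunits, 4 of 6 ATPases and 7 of 11 non-ATPase subunits were among them. Among the 4635 genes with a mean of at least 10, which hold 39 of the 48, 27.8% were higher and 34.4% lower, against 25 and 1 of the 39. With the library medians aligned, 21 genes were higher and 2 lower, and without untreated replicate 1 21 and 3. The lower count was 2 without H2O2 4 h replicate 2, H2O2 8 h replicate 2 or 3, or NCS 8 h replicate 1.

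At 8 h of H2O2, 16 of 48 genes were higher and 3 lower (18.8% and 18.6% of all genes), and the median of the 31 subunits was 0.075. The lower genes were PSMG2, PSMD10 and PSMD5, all of them assembly factors and none a subunit of the finished particle. Without H2O2 8 h replicate 2 the counts were 18 and 3, and without H2O2 8 h replicate 3 the higher count was 10 and the median 0.048. Among genes with a mean of at least 10, 29.6% and 34.3% were higher and lower, against 14 and 2 of the 39 proteasome genes. By 24 h the picture was mixed, with 11 genes higher and 18 lower (20.2% and 19.9%). The share of higher genes, 22.9%, was near that of all genes, and the share of lower ones was 37.5%. Among genes with a mean of at least 10 the shares were 29.9% and 39.1%, against 8 and 14 of the 39, so that the share of lower proteasome genes was near that background. Of 17 cap subunits 10 were lower and 3 higher, while 3 core subunits were higher and 1 lower and all 3 immunoproteasome subunits were higher. The median of the 31 subunits was -0.030, but 0.020 after quantile normalization, which gave 17 higher and 9 lower genes and 4 higher against 5 lower cap subunits. With the library medians aligned the median was -0.049, and without H2O2 24 h replicate 1 it was -0.013.

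At 4 h of NCS, 9 of 48 were higher and 0 lower (7.47% and 9.72% of all genes), and at 8 h 13 were higher and 4 lower (10.5% and 13.3%). The medians of the 31 subunits were 0.041 and 0.031. The 4 lower genes at 8 h were PSMG1, PSMG2, PSMC3IP and PSMB2. The shares of higher genes, 18.8% and 27.1%, stood above those of all genes and the shares of lower ones below. Among genes with a mean of at least 10, 12.8% and 20.6% were higher and lower after 4 h and 17.3% and 27.7% after 8 h, against 6 and 0 and then 10 and 1 of the 39, which puts the higher count at 4 h near that background. At 24 h, 13 were higher and 13 lower (19.6% and 18.4%), and all 4 PSMG chaperones were among the lower genes. There the shares among genes with a mean of at least 10 were 34.8% and 33.3%, against 11 and 8 of the 39. The median of the 31 at 24 h was -0.025, and 0.0018 after quantile normalization, which gave 16 higher and 8 lower genes. Without untreated replicate 3 that median was -0.0059. At 8 h the median was 0.0076 with the library medians aligned, 0.059 after quantile normalization, 0.011 without NCS 8 h replicate 3 and 0.054 without NCS 8 h replicate 1. At 4 h it was 0.063 after quantile normalization. The higher counts depended on the scaling and on single libraries. With the library medians aligned they were 4 at 4 h and 6 (with 5 lower) at 8 h, and after quantile normalization 13 and 20 (with 3 lower). At 4 h the count was 2 without untreated replicate 1 or NCS 4 h replicate 1 and 4 without untreated replicate 2 or NCS 4 h replicate 3, and at 8 h it was 7 without untreated replicate 1 or NCS 8 h replicate 3 and 6 without untreated replicate 2.

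**Figure D1:**
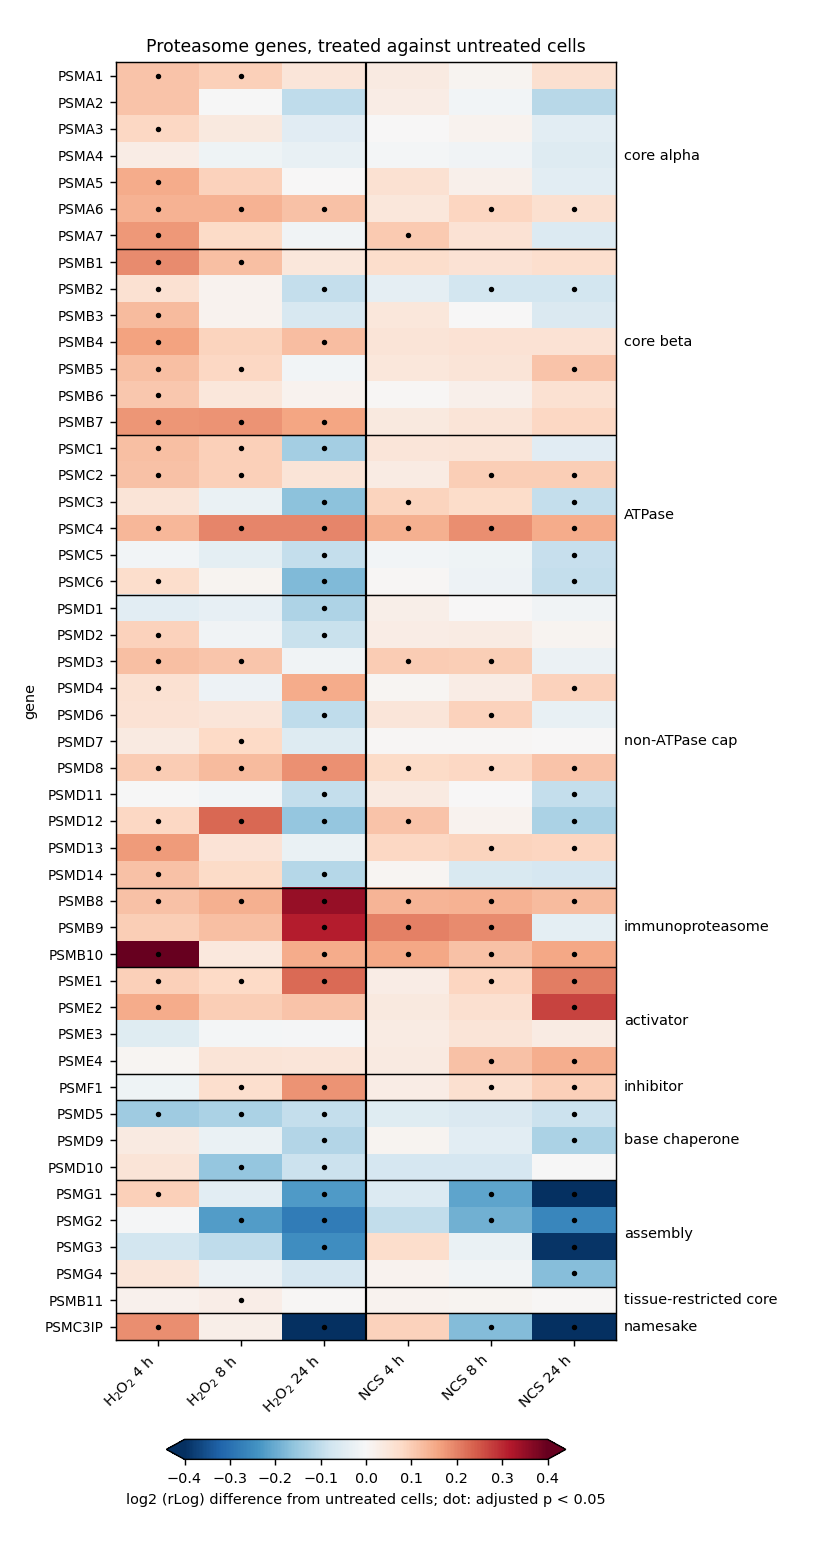
Log2 (rLog) difference of each of the 48 proteasome genes (rows, grouped by role) from untreated cells in the 6 treated groups (columns), red for higher and blue for lower, with a dot where the limma adjusted p was under 0.05. The scale ends at 0.4 on both sides, so PSMB10 at 4 h of H2O2 (0.41), PSMG1 at 24 h of NCS (-0.40) and PSMC3IP at 24 h of both treatments (-0.95 and -0.91) are at its end. Beta subunits carry dots throughout the first column, and all 4 PSMG rows are blue with a dot at 24 h of NCS.

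From time to time within H2O2, 2 genes were higher and 12 lower at 8 h than at 4 h (18% and 27.7% of all genes), and 7 were higher and 22 lower at 24 h than at 8 h (19.4% and 23.2%). The median of the 31 subunits moved by -0.042 in the first step and -0.084 in the second. Of the 22, 13 were cap subunits and 4 core subunits, and the 3 immunoproteasome genes were among the 7 that rose. Of these calls that of PSMB8 was stable, that of PSMB10 was lost with the library medians aligned, and that of PSMB9 under quantile normalization and without H2O2 24 h replicate 3. Quantile normalization gave 5 higher and 8 lower genes in the first step and 9 and 11 in the second, while aligned library medians gave 2 and 7 and then 5 and 25. Without H2O2 8 h replicate 2 the first step had 4 higher and 8 lower genes and the second 6 and 21, and without H2O2 8 h replicate 3 the second had 13 lower ones. Within NCS, 1 gene was higher and 3 lower at 8 h than at 4 h (6.16% and 7.5%), and 3 were higher and 14 lower at 24 h than at 8 h (14.9% and 15%). The first step had 0 higher and 3 lower genes with the medians aligned, and the second had 6 higher and 8 lower ones. PSMC2, the 1 gene in the first step that rose, was not called without any 1 of 16 of the 21 libraries.

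The changes were small in absolute terms. No proteasome gene passed an absolute log2 difference of 1, which 0.696%, 0.518% and 1.61% of all genes did at 4, 8 and 24 h of H2O2, 0.218%, 0.34% and 1.5% under NCS and 0.574%, 0.162% and 0.0152% between the treatments. Only PSMC3IP, at 24 h of both treatments, passed 0.58, a limit that 2.91%, 2.44% and 4.56% passed under H2O2, 1%, 1.29% and 3.97% under NCS and 2.63%, 0.919% and 0.457% between them. For a set of this size, both results are near the shares of all genes. Among genes with a mean of at least 10, the median absolute difference of the proteasome genes was 0.103, 0.075 and 0.096 at the successive times of H2O2. Over all genes at that level it was 0.106, 0.117 and 0.142. Under NCS the medians were 0.037, 0.051 and 0.074, against 0.062, 0.076 and 0.135. Of the 130 calls against untreated cells, 70, in 33 genes, were kept under both other scalings, a filter on low values, a fit of the compared groups alone, a fit without the variance trend, the replicate block and the omission of each library in turn, and calls kept in this way in any comparison are called stable below. Where the call of a single proteasome gene against untreated cells is described and was not stable, the settings or libraries that ended it are given in most cases, and a fit with fewer libraries also has less power.

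**Figure D2:**
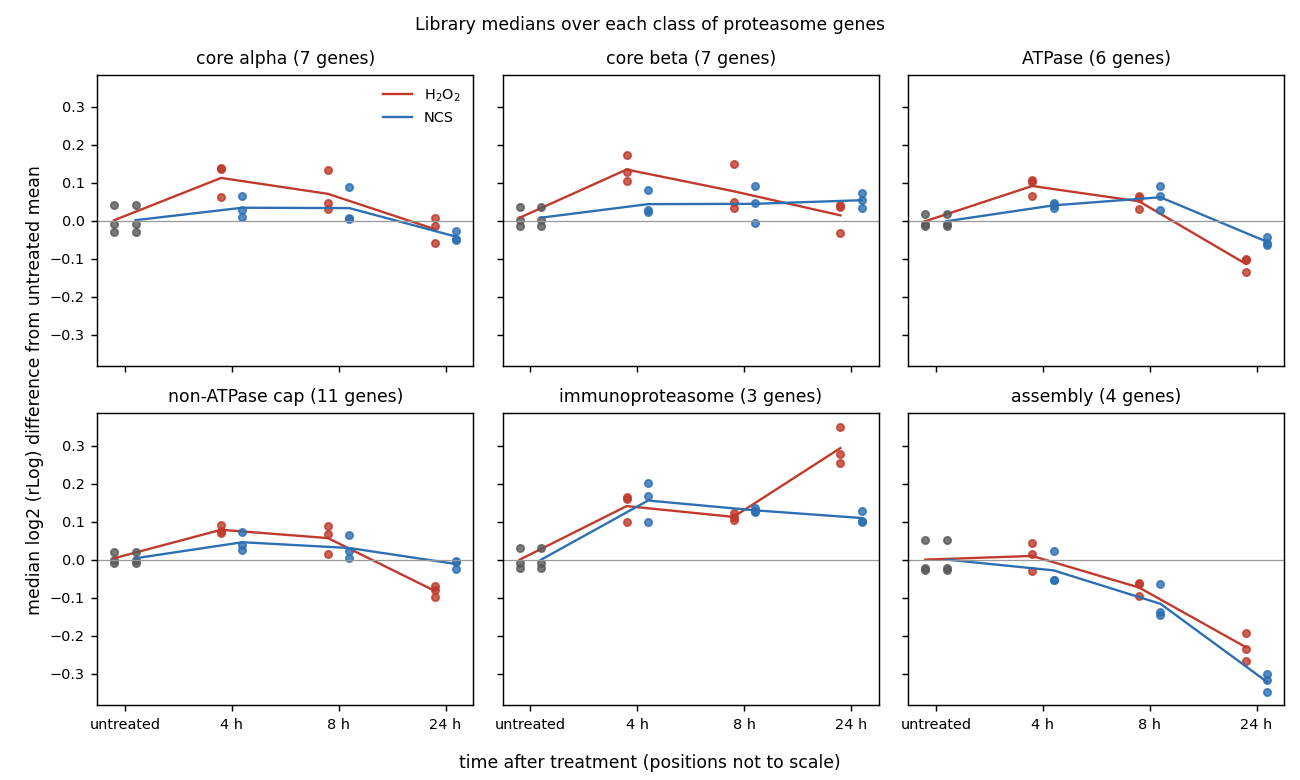
Median log2 (rLog) difference from the untreated mean over the genes of 6 classes (panels) in each library (points), with lines through the group means; H2O2 is red, NCS blue and untreated grey, and the time axis is not to scale. At 4 h of H2O2 the 3 core beta medians lay at 0.10, 0.17 and 0.13, above the untreated libraries at 0.0011, -0.013 and 0.037, while the PSMG medians fell to -0.30, -0.32 and -0.35 at 24 h of NCS.

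Over the 31 subunits, the library medians of the difference from the untreated mean were 0.083, 0.12 and 0.11 at 4 h of H2O2, 0.058, 0.034 and 0.11 at 8 h and -0.063, -0.014 and -0.013 at 24 h, with the untreated libraries at -0.0096, -0.0092 and 0.024. Those of the NCS libraries were 0.064, 0.025 and 0.031, 0.0035, 0.033 and 0.088 and -0.0055, -0.045 and -0.016. The H2O2 libraries at 4 and 8 h and the NCS libraries at 4 h all lay above the untreated ones, the H2O2 libraries at 24 h all lay below them, and the NCS libraries at 8 and 24 h overlapped them. The pooled SD of these medians within groups was 0.028.

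Alpha subunits form the outer rings and the gate of the core. PSMA7 read 12.25, 12.18 and 12.34 in the untreated libraries, 12.44, 12.46 and 12.40 at 4 h of H2O2, 12.31, 12.31 and 12.40 at 8 h and 12.23, 12.24 and 12.26 at 24 h. Under NCS, PSMA7 read 12.40, 12.36 and 12.33 after 4 h, 12.27, 12.33 and 12.35 after 8 h and 12.21, 12.18 and 12.22 after 24 h. Its H2O2 libraries at 4 h all lay above the untreated ones and those at 24 h overlapped them. The rise at 4 h was 0.17 ± 0.034 (SE, adjusted p = 0.000412) and stable; the NCS difference at 4 h of 0.10 passed the test (adjusted p = 0.0426), with overlapping libraries. That NCS call was lost without any 1 of 12 of the 21 libraries, with the library medians aligned, in a fit of the compared groups alone and without the variance trend. Levels of PSMA5 were 11.04, 11.04 and 11.18 without treatment, 11.20, 11.24 and 11.26 after 4 h of H2O2, 11.15, 11.12 and 11.27 after 8 h and 11.02, 11.09 and 11.15 after 24 h. In NCS-treated cells PSMA5 was at 11.17, 11.16 and 11.11, 11.06, 11.09 and 11.17 and 11.08, 10.98 and 11.07 at the same times. PSMA5 was above all untreated libraries at 4 h of H2O2 alone, by 0.15 ± 0.046 (SE, adjusted p = 0.0128). This call was lost without untreated replicate 1 or 2. PSMA2 read 11.30, 11.22 and 11.38 in the untreated libraries, 11.36, 11.44 and 11.45 at 4 h of H2O2, 11.26, 11.26 and 11.37 at 8 h and 11.18, 11.16 and 11.25 at 24 h. Under NCS, PSMA2 read 11.38, 11.31 and 11.30 after 4 h, 11.16, 11.31 and 11.40 after 8 h and 11.21, 11.11 and 11.24 after 24 h. Its differences ran from 0.12 at 4 h of H2O2 to -0.11 at 24 h of NCS, none passed the test, and libraries overlapped in every group. PSMA6 was higher in 5 of the 6 treated groups, by 0.14, 0.14 and 0.12 under H2O2, all stable, and by 0.087 and 0.064 at 8 and 24 h of NCS. The 2 NCS calls were not stable: that at 8 h was lost without NCS 8 h replicate 2 and with the library medians aligned, and that at 24 h without any 1 of 15 of the 21 libraries and with the library medians aligned. PSMA1 rose by 0.11 ± 0.029 (SE, adjusted p = 0.00367) at 4 h of H2O2, a stable call, and PSMA3 by 0.084 (lost without untreated replicate 1 or H2O2 4 h replicate 2, with the library medians aligned and in a fit of the compared groups alone). PSMA4 stayed within -0.051 and 0.030 of untreated cells, with no call.

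All 7 beta subunits, which form the inner rings, were higher at 4 h of H2O2, where 26.2% of all genes were. The call of PSMB2, for a difference of 0.062, was lost with the library medians aligned and under quantile normalization. PSMB1 read 11.61, 11.54 and 11.66 in the untreated libraries, 11.71, 11.85 and 11.83 at 4 h of H2O2, 11.68, 11.71 and 11.78 at 8 h and 11.57, 11.67 and 11.70 at 24 h. Under NCS, PSMB1 read 11.72, 11.64 and 11.66 after 4 h, 11.63, 11.65 and 11.70 after 8 h and 11.70, 11.66 and 11.66 after 24 h. PSMB1, a beta subunit without an active site, exceeded all untreated values at 4 and 8 h of H2O2. It rose by 0.19 ± 0.041 (SE, adjusted p = 0.000836) at 4 h, the largest change of a standard subunit there, and by 0.12 at 8 h. The call at 8 h was lost without untreated replicate 2 or H2O2 8 h replicate 3 and in a fit of the compared groups alone. Levels of PSMB7 were 10.72, 10.70 and 10.71 without treatment, 10.85, 10.89 and 10.92 after 4 h of H2O2, 10.88, 10.83 and 10.96 after 8 h and 10.83, 10.89 and 10.90 after 24 h. In NCS-treated cells PSMB7 was at 10.75, 10.73 and 10.77, 10.71, 10.77 and 10.81 and 10.84, 10.75 and 10.80 at the same times. PSMB7, the trypsin-like active subunit, lay above the untreated libraries at all 3 times of H2O2, by 0.18, 0.18 and 0.16 (adjusted p = 0.000237, 0.000236 and 0.000594), and all 3 calls were stable. Under NCS its differences were 0.041 to 0.084, without a call. PSMB2 read 12.21, 12.21 and 12.21 in the untreated libraries, 12.27, 12.26 and 12.29 at 4 h of H2O2, 12.25, 12.20 and 12.23 at 8 h and 12.10, 12.12 and 12.12 at 24 h. Under NCS, PSMB2 read 12.14, 12.19 and 12.19 after 4 h, 12.15, 12.15 and 12.12 after 8 h and 12.13, 12.15 and 12.14 after 24 h. PSMB2 was the beta subunit that went down: all its libraries at 8 and 24 h of NCS and at 24 h of H2O2 lay below the untreated ones. The differences were -0.074 ± 0.018 (SE, adjusted p = 0.00238) at 24 h of NCS, which was stable, -0.10 at 24 h of H2O2 and -0.073 at 8 h of NCS, of which the last pair were lost under quantile normalization. Levels of PSMB3 were 11.07, 11.07 and 11.21 without treatment, 11.22, 11.29 and 11.22 after 4 h of H2O2, 11.09, 11.08 and 11.22 after 8 h and 11.05, 11.08 and 11.03 after 24 h. In NCS-treated cells PSMB3 was at 11.20, 11.15 and 11.14, 11.03, 11.15 and 11.18 and 11.04, 11.04 and 11.10 at the same times. Only its 4 h H2O2 libraries were above all untreated ones, by 0.13 ± 0.045 (SE, adjusted p = 0.028). The PSMB3 call was lost without untreated replicate 1 or 2 or H2O2 4 h replicate 2 and in a fit of the compared groups alone. The other active subunits, PSMB5 and PSMB6, rose by 0.12 and 0.11 at 4 h of H2O2, and PSMB4 by 0.16; the PSMB6 call was lost without untreated replicate 1 and the others were stable. PSMB5 was also higher at 24 h of NCS, by 0.11 ± 0.030 (SE, adjusted p = 0.00466), a stable call.

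Among the ATPases of the cap, 17 of 21 calls against untreated cells were stable. PSMC4 read 11.45, 11.53 and 11.49 in the untreated libraries, 11.61, 11.60 and 11.66 at 4 h of H2O2, 11.70, 11.63 and 11.72 at 8 h and 11.69, 11.72 and 11.65 at 24 h. Under NCS, PSMC4 read 11.61, 11.64 and 11.64 after 4 h, 11.62, 11.73 and 11.67 after 8 h and 11.61, 11.65 and 11.67 after 24 h. PSMC4 was one of 3 genes, with PSMA6 and PSMD8, whose libraries all lay above all untreated libraries in all 6 treated groups, and the only one with a stable call in each. How many of all genes lay above the untreated libraries in this way was not counted. The PSMC4 differences were 0.13, 0.19 and 0.20 under H2O2 and 0.14, 0.18 and 0.15 under NCS (adjusted p from 4.71e-05 at 8 h of H2O2 to 0.00264 at 4 h of NCS), all stable. Levels of PSMC6 were 11.13, 11.13 and 11.18 without treatment, 11.17, 11.26 and 11.23 after 4 h of H2O2, 11.16, 11.15 and 11.17 after 8 h and 10.93, 10.94 and 11.04 after 24 h. In NCS-treated cells PSMC6 was at 11.15, 11.14 and 11.17, 11.13, 11.12 and 11.13 and 11.07, 11.02 and 11.07 at the same times. At 4 h of H2O2 PSMC6 averaged 11.22 against 11.15 without treatment, with overlapping libraries. PSMC6 lay below all untreated libraries at 24 h of either treatment. It fell by 0.18 ± 0.026 (SE, adjusted p = 2.18e-05) at 24 h of H2O2, the largest fall of a standard subunit, and by 0.095 at 24 h of NCS, a call lost under quantile normalization. PSMC1 read 11.83, 11.83 and 11.86 in the untreated libraries, 11.92, 11.96 and 12.01 at 4 h of H2O2, 11.95, 11.89 and 11.96 at 8 h and 11.66, 11.72 and 11.74 at 24 h. Under NCS, PSMC1 read 11.87, 11.89 and 11.90 after 4 h, 11.86, 11.89 and 11.92 after 8 h and 11.79, 11.78 and 11.82 after 24 h. PSMC1 rose and then fell under H2O2, with all libraries above the untreated ones at 4 and 8 h and all below at 24 h. The differences were 0.12, 0.094 and -0.13, each stable, and the step from 8 to 24 h was -0.23 ± 0.026 (SE, adjusted p = 6.92e-07). The NCS libraries of PSMC1 likewise all lay above the untreated ones at 4 h and below them at 24 h. Levels of PSMC3 were 12.46, 12.47 and 12.54 without treatment, 12.54, 12.54 and 12.55 after 4 h of H2O2, 12.44, 12.44 and 12.51 after 8 h and 12.33, 12.34 and 12.31 after 24 h. In NCS-treated cells PSMC3 was at 12.61, 12.56 and 12.57, 12.53, 12.57 and 12.59 and 12.34, 12.44 and 12.41 at the same times. Every PSMC3 library at 4 h of NCS was above the untreated ones, with means of 12.58 and 12.49. At 24 h of both treatments every PSMC3 library was below the untreated ones, with a difference of -0.17 ± 0.027 (SE, adjusted p = 6.07e-05) for H2O2, stable, and -0.094 ± 0.027 (SE, adjusted p = 0.00969) for NCS. The NCS call was lost without untreated replicate 3 or NCS 24 h replicate 1 and in a fit of the compared groups alone. PSMC5 fell by 0.10 and 0.091 at 24 h of H2O2 and NCS, both stable. PSMC2 was higher at 4 and 8 h of H2O2 and at 8 and 24 h of NCS, by 0.12, 0.10, 0.10 and 0.10, all stable. So PSMC4 and PSMC2 were higher and PSMC3, PSMC5 and PSMC6 lower at 24 h of NCS, within the same ring.

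Among the non-ATPase subunits the lid subunit PSMD12 varied most. PSMD12 read 10.64, 10.67 and 10.65 in the untreated libraries, 10.74, 10.74 and 10.72 at 4 h of H2O2, 10.96, 10.82 and 10.86 at 8 h and 10.49, 10.46 and 10.54 at 24 h. Under NCS, PSMD12 read 10.80, 10.72 and 10.77 after 4 h, 10.67, 10.64 and 10.69 after 8 h and 10.54, 10.51 and 10.52 after 24 h. Its H2O2 libraries stood above all untreated ones at 4 h, further above at 8 h, and below them at 24 h. The difference at 8 h was 0.23 ± 0.031 (SE, adjusted p = 8.5e-06), the step up from 4 h 0.14 ± 0.031 (SE, adjusted p = 0.000816) and the step down to 24 h -0.38 ± 0.031 (SE, adjusted p = 1.07e-08), all stable. Under NCS it was 0.11 at 4 h and -0.13 ± 0.031 (SE, adjusted p = 0.00245) at 24 h, the latter stable. The call at 4 h of NCS was lost without untreated replicate 1 or NCS 4 h replicate 1 or 3 and with the library medians aligned. Levels of PSMD8 were 12.39, 12.44 and 12.49 without treatment, 12.54, 12.54 and 12.55 after 4 h of H2O2, 12.58, 12.51 and 12.61 after 8 h and 12.59, 12.65 and 12.62 after 24 h. In NCS-treated cells PSMD8 was at 12.53, 12.51 and 12.51, 12.53, 12.51 and 12.53 and 12.54, 12.56 and 12.56 at the same times. PSMD8, also of the lid, was likewise above all untreated libraries in all 6 treated groups. Its H2O2 differences of 0.10, 0.13 and 0.18 and that of 0.11 at 24 h of NCS were stable. The call at 8 h of NCS was lost without untreated replicate 1 or NCS 8 h replicate 1 or 3, with the library medians aligned and in a fit of the compared groups alone. The one at 4 h of NCS was lost without untreated replicate 1 or 2 or NCS 4 h replicate 1, 2 or 3, with the library medians aligned and in a fit of the compared groups alone. PSMD1 read 12.43, 12.43 and 12.42 in the untreated libraries, 12.36, 12.42 and 12.38 at 4 h of H2O2, 12.39, 12.39 and 12.42 at 8 h and 12.29, 12.28 and 12.34 at 24 h. Under NCS, PSMD1 read 12.45, 12.45 and 12.45 after 4 h, 12.43, 12.41 and 12.45 after 8 h and 12.42, 12.40 and 12.41 after 24 h. PSMD1, a scaffold of the cap base, was below all untreated libraries at 8 and 24 h of H2O2, and the difference at 24 h was -0.12 ± 0.019 (SE, adjusted p = 3.11e-05). This call was lost under quantile normalization. The other members of the class gave 0.17 for PSMD13, 0.12 for PSMD14, the deubiquitinase of the lid, and 0.12 for PSMD3 at 4 h of H2O2, all stable rises. PSMD4, a ubiquitin receptor, was higher at 24 h of H2O2 by 0.15 ± 0.022 (SE, adjusted p = 1.73e-05) and at 24 h of NCS by 0.093, both stable. At 24 h of H2O2 PSMD2, PSMD6, PSMD11 and PSMD14 were lower by 0.090, 0.10, 0.10 and 0.11, and each of these 4 calls was lost under quantile normalization, that of PSMD2 also without untreated replicate 3 or H2O2 24 h replicate 1 or 2. PSMD7 differed by 0.081 at 8 h of H2O2. Its call was lost without untreated replicate 1 or H2O2 8 h replicate 1 or 3, with the library medians aligned and in a fit of the compared groups alone.

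The immunoproteasome subunits moved at different times. PSMB10 read 8.55, 8.53 and 8.59 in the untreated libraries, 8.95, 9.01 and 8.94 at 4 h of H2O2, 8.61, 8.57 and 8.61 at 8 h and 8.71, 8.73 and 8.67 at 24 h. Under NCS, PSMB10 read 8.73, 8.65 and 8.75 after 4 h, 8.69, 8.68 and 8.65 after 8 h and 8.66, 8.75 and 8.73 after 24 h. PSMB10, which takes the place of PSMB7, stood above all untreated libraries at 4 h of H2O2 by the widest margin of any member, came back to overlap them at 8 h and was above them again at 24 h. The rise at 4 h was 0.41 ± 0.032 (SE, adjusted p = 5.98e-09), or 1.33-fold, the step down to 8 h was -0.37 ± 0.032 (SE, adjusted p = 2.98e-08), and the value at 24 h was 0.15 ± 0.032 (SE, adjusted p = 0.000791), all stable. Under NCS it was 0.16, 0.12 and 0.15 above untreated cells, with the call at 8 h lost with the library medians aligned. Levels of PSMB8 were 8.82, 8.90 and 8.97 without treatment, 8.99, 9.06 and 8.99 after 4 h of H2O2, 9.07, 9.00 and 9.04 after 8 h and 9.17, 9.31 and 9.25 after 24 h. In NCS-treated cells PSMB8 was at 9.06, 8.94 and 9.10, 9.02, 9.04 and 9.05 and 9.04, 9.00 and 9.02 at the same times. PSMB8, the counterpart of PSMB5, was highest at 24 h of H2O2, where every library exceeded all 18 others of the series. The difference of 0.35 ± 0.044 (SE, adjusted p = 2.72e-06) and the step from 8 h of 0.21 ± 0.044 (SE, adjusted p = 0.000802) were stable. Its rises of 0.12 to 0.14 in the other 5 groups passed the test but were not stable. All 5 were lost without untreated replicate 1 and in a fit of the compared groups alone, 4 of them also without untreated replicate 2, and each without at least 1 library of its own group. Those at 4 h of H2O2 and of NCS were also lost with the library medians aligned. PSMB9 read 6.39, 6.35 and 6.38 in the untreated libraries, 6.47, 6.41 and 6.53 at 4 h of H2O2, 6.49, 6.50 and 6.50 at 8 h and 6.66, 6.63 and 6.78 at 24 h. Under NCS, PSMB9 read 6.54, 6.54 and 6.64 after 4 h, 6.74, 6.45 and 6.50 after 8 h and 6.34, 6.29 and 6.39 after 24 h. PSMB9, the counterpart of PSMB6, was the least expressed of the 3 and its NCS libraries at 8 h were far apart. It was 0.31 ± 0.062 (SE, adjusted p = 0.000403) higher at 24 h of H2O2, which was stable, and 0.20 and 0.19 higher at 4 and 8 h of NCS. The call at 4 h of NCS was lost without untreated replicate 1, 2 or 3 or NCS 4 h replicate 1, 2 or 3. That at 8 h of NCS was lost without untreated replicate 1, 2 or 3 or NCS 8 h replicate 1, under quantile normalization and in a fit of the compared groups alone. At 24 h of NCS PSMB9 overlapped the untreated libraries (-0.038).

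Genes of the MHC class I pathway, which carries the peptides on, were listed for comparison. Of 14 tested, 7 rose and 2 fell at 4 h, 5 rose and 3 fell at 8 h and 10 rose and 2 fell at 24 h of H2O2, and 2 rose and 0 fell at 4 h, 4 rose and 1 fell at 8 h and 8 rose and 1 fell at 24 h of NCS. Over all genes the higher shares were 26.2%, 18.8% and 20.2% at the successive times of H2O2 and 7.47%, 10.5% and 19.6% at those of NCS, and the lower shares were 19.7%, 18.6% and 19.9%, then 9.72%, 13.3% and 18.4%. TAP1 read 8.93, 8.80 and 9.02 in the untreated libraries, 9.09, 9.04 and 9.02 at 4 h of H2O2, 9.54, 9.42 and 9.57 at 8 h and 9.91, 9.88 and 10.00 at 24 h. Under NCS, TAP1 read 9.54, 9.51 and 9.57 after 4 h, 9.66, 9.58 and 9.65 after 8 h and 9.55, 9.46 and 9.61 after 24 h. TAP1, the peptide transporter whose start lies 488 bases from that of PSMB9 on the opposite strand, was above all untreated libraries in 5 of 6 groups. Its differences were 0.13, 0.59 and 1.01 under H2O2 and 0.62, 0.71 and 0.62 under NCS (adjusted p = 1.1e-11 at 24 h of H2O2 and 1.42e-08 at 24 h of NCS). At 24 h of NCS TAP1 was thus up while PSMB9 was at -0.038 with no call. IRF1, a transcription factor of the interferon response, was 0.62 ± 0.054 (SE, adjusted p = 5.34e-08) higher at 8 h of H2O2, and NLRC5, an activator of class I genes, was -0.35 ± 0.068 (SE, adjusted p = 0.000412) there.

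Of the 4 activators, 2, 1 and 1 were higher at the successive times of H2O2 and 0, 2 and 3 at those of NCS, and none was lower. Of all genes, 26.2%, 18.8% and 20.2% were higher at these times of H2O2 and 7.47%, 10.5% and 19.6% at those of NCS. The lower shares of all genes ran from 9.72% at 4 h of NCS to 19.9% at 24 h of H2O2. The counts of 1 of 4 at 8 and 24 h of H2O2 are near such shares. PSME1 read 10.40, 10.32 and 10.41 in the untreated libraries, 10.46, 10.47 and 10.49 at 4 h of H2O2, 10.50, 10.41 and 10.46 at 8 h and 10.56, 10.64 and 10.62 at 24 h. Under NCS, PSME1 read 10.43, 10.40 and 10.39 after 4 h, 10.47, 10.43 and 10.49 after 8 h and 10.59, 10.56 and 10.59 after 24 h. PSME1, the alpha subunit of the PA28 cap, was above all untreated libraries at 4 and 24 h of H2O2 and at 8 and 24 h of NCS. At 24 h it was higher by 0.23 ± 0.029 (SE, adjusted p = 3.35e-06) with H2O2 and 0.21 ± 0.029 (SE, adjusted p = 1.2e-05) with NCS, both stable. Levels of PSME2 were 10.89, 10.82 and 10.92 without treatment, 10.98, 11.03 and 11.06 after 4 h of H2O2, 10.92, 11.00 and 11.01 after 8 h and 10.95, 10.97 and 11.05 after 24 h. In NCS-treated cells PSME2 was at 11.00, 10.86 and 10.89, 10.86, 10.96 and 11.00 and 11.14, 11.08 and 11.22 at the same times. PSME2, the beta subunit of PA28, had all libraries at 24 h of NCS above all untreated ones and above those of the earlier NCS times. The rise was 0.27 ± 0.045 (SE, adjusted p = 6.98e-05), 1.21-fold, and the step from 8 h 0.21 ± 0.045 (SE, adjusted p = 0.00149), both stable. With H2O2 it was 0.15 at 4 h, a call lost without untreated replicate 2, and 0.11 at 24 h, with no call (adjusted p = 0.0507) although no library overlapped. PSME3 read 12.71, 12.77 and 12.77 in the untreated libraries, 12.69, 12.72 and 12.70 at 4 h of H2O2, 12.74, 12.72 and 12.77 at 8 h and 12.73, 12.74 and 12.77 at 24 h. Under NCS, PSME3 read 12.78, 12.78 and 12.79 after 4 h, 12.77, 12.81 and 12.82 after 8 h and 12.79, 12.77 and 12.79 after 24 h. PSME3, the nuclear PA28 gamma, had no call against untreated cells, with differences from -0.048 to 0.051, although its 4 h NCS libraries all lay just above the untreated ones. Levels of PSME4 were 11.78, 11.67 and 11.75 without treatment, 11.71, 11.82 and 11.70 after 4 h of H2O2, 11.76, 11.77 and 11.81 after 8 h and 11.76, 11.77 and 11.81 after 24 h. In NCS-treated cells PSME4 was at 11.80, 11.75 and 11.76, 11.82, 11.84 and 11.89 and 11.86, 11.89 and 11.88 at the same times. PSME4, the large cap PA200, was above all untreated libraries at 8 and 24 h of NCS, by 0.12 and 0.14 ± 0.031 (SE, adjusted p = 0.000969). The call at 24 h was stable. The call at 8 h was lost without untreated replicate 2 or NCS 8 h replicate 3 and in a fit of the compared groups alone. PSMF1 read 11.47, 11.50 and 11.48 in the untreated libraries, 11.48, 11.45 and 11.47 at 4 h of H2O2, 11.59, 11.53 and 11.54 at 8 h and 11.67, 11.70 and 11.63 at 24 h. Under NCS, PSMF1 read 11.56, 11.50 and 11.49 after 4 h, 11.55, 11.56 and 11.53 after 8 h and 11.56, 11.58 and 11.60 after 24 h. PSMF1, the inhibitor PI31, read highest at 24 h of H2O2 and was above all untreated libraries at 8 and 24 h of both treatments. It rose by 0.18 ± 0.022 (SE, adjusted p = 2.04e-06) with H2O2 and 0.10 with NCS at 24 h, both stable. Its H2O2 call at 8 h was lost without untreated replicate 1 or 3 or H2O2 8 h replicate 1, with the library medians aligned and in a fit of the compared groups alone. Its NCS call at 8 h was lost without any 1 of 9 of the 21 libraries and with the library medians aligned.

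None of the 3 chaperones of the cap base was called higher than in untreated cells in any group. The higher shares of all genes ran from 7.47% at 4 h of NCS to 26.2% at 4 h of H2O2. PSMD5 read 10.52, 10.56 and 10.52 in the untreated libraries, 10.41, 10.42 and 10.35 at 4 h of H2O2, 10.39, 10.47 and 10.36 at 8 h and 10.40, 10.45 and 10.46 at 24 h. Under NCS, PSMD5 read 10.46, 10.52 and 10.47 after 4 h, 10.49, 10.48 and 10.46 after 8 h and 10.48, 10.42 and 10.45 after 24 h. PSMD5 was the only member lower at 4 h of H2O2, with all libraries below the untreated ones at all 3 times. It fell by 0.14 ± 0.029 (SE, adjusted p = 0.000644) at 4 h and by 0.13 at 8 h, both stable, and by 0.095 at 24 h. At 24 h of NCS the difference was -0.086. The NCS call was lost without untreated replicate 2 or NCS 24 h replicate 2 or 3, with the library medians aligned and under quantile normalization. The call at 24 h of H2O2 was lost without untreated replicate 2 or H2O2 24 h replicate 1 and under quantile normalization. Levels of PSMD10 were 10.11, 10.10 and 10.09 without treatment, 10.18, 10.10 and 10.18 after 4 h of H2O2, 9.91, 9.95 and 9.96 after 8 h and 9.99, 10.00 and 10.05 after 24 h. In NCS-treated cells PSMD10 was at 10.04, 10.04 and 10.02, 9.99, 10.07 and 10.03 and 10.11, 10.09 and 10.09 at the same times. PSMD10, also known as gankyrin, dropped below the untreated range at 8 h of H2O2, with a difference of -0.16 ± 0.026 (SE, adjusted p = 9.86e-05), and the step from 4 h was -0.21 ± 0.026 (SE, adjusted p = 3.45e-06), both stable. At 24 h it was at -0.085. That call was lost without H2O2 24 h replicate 1 and under quantile normalization. The PSMD10 libraries at 24 h of H2O2 and at 4 and 8 h of NCS also all lay below the untreated ones. The NCS differences, -0.068 and -0.067, had no call. PSMD9 read 10.65, 10.62 and 10.78 in the untreated libraries, 10.74, 10.70 and 10.72 at 4 h of H2O2, 10.65, 10.61 and 10.71 at 8 h and 10.58, 10.55 and 10.56 at 24 h. Under NCS, PSMD9 read 10.71, 10.68 and 10.70 after 4 h, 10.68, 10.63 and 10.61 after 8 h and 10.53, 10.57 and 10.58 after 24 h. PSMD9 was below all untreated libraries at 24 h of either treatment. The differences were -0.12 for H2O2 and -0.13 for NCS. Both calls were lost under quantile normalization and in a fit of the compared groups alone, and the H2O2 one also without untreated replicate 3.

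Of the PSMG chaperones, which guide the alpha subunits into rings, 3 of 4 fell at 24 h of H2O2 and all 4 at 24 h of NCS, where 19.9% and 18.4% of all genes were lower. PSMG1 read 10.09, 10.09 and 10.15 in the untreated libraries, 10.21, 10.19 and 10.23 at 4 h of H2O2, 10.08, 10.04 and 10.08 at 8 h and 9.86, 9.87 and 9.92 at 24 h. Under NCS, PSMG1 read 10.08, 10.07 and 10.02 after 4 h, 9.90, 9.89 and 9.91 after 8 h and 9.74, 9.69 and 9.69 after 24 h. PSMG1, the partner of PSMG2, rose slightly at 4 h of H2O2 and fell in steps under NCS, with all libraries at 8 and 24 h below the untreated ones and each NCS group below the one before. The differences were 0.10 ± 0.025 (SE, adjusted p = 0.00458) at 4 h of H2O2, a call lost with the library medians aligned, -0.23 ± 0.025 (SE, adjusted p = 5.48e-07) at 24 h, -0.21 ± 0.025 (SE, adjusted p = 4.21e-06) at 8 h of NCS and -0.40 ± 0.025 (SE, adjusted p = 2.25e-10) at 24 h, or 0.76-fold. The last 3 were stable. Levels of PSMG2 were 9.88, 9.86 and 9.96 without treatment, 9.85, 9.91 and 9.92 after 4 h of H2O2, 9.66, 9.64 and 9.72 after 8 h and 9.61, 9.57 and 9.68 after 24 h. In NCS-treated cells PSMG2 was at 9.81, 9.83 and 9.77, 9.65, 9.70 and 9.77 and 9.67, 9.65 and 9.59 at the same times. Every PSMG2 library at 8 and 24 h of both treatments was below the untreated ones. It differed by -0.22 and -0.28 with H2O2 and -0.19 and -0.26 with NCS (adjusted p = 8.84e-05, 5.35e-06, 0.000664 and 1.4e-05), all stable. PSMG3 read 8.78, 8.93 and 9.05 in the untreated libraries, 8.85, 8.84 and 8.85 at 4 h of H2O2, 8.82, 8.80 and 8.83 at 8 h and 8.59, 8.70 and 8.73 at 24 h. Under NCS, PSMG3 read 9.04, 9.03 and 8.91 after 4 h, 8.84, 8.85 and 9.00 after 8 h and 8.52, 8.53 and 8.53 after 24 h. PSMG3, the partner of PSMG4, passed the test only at 24 h, with -0.25 ± 0.056 (SE, adjusted p = 0.00131) with H2O2 and -0.39 ± 0.056 (SE, adjusted p = 1.31e-05) with NCS, both stable and both without overlap. Levels of PSMG4 were 7.93, 7.78 and 7.83 without treatment, 7.84, 8.00 and 7.85 after 4 h of H2O2, 7.88, 7.78 and 7.81 after 8 h and 7.78, 7.81 and 7.76 after 24 h. In NCS-treated cells PSMG4 was at 7.92, 7.78 and 7.88, 7.84, 7.81 and 7.85 and 7.61, 7.78 and 7.63 at the same times. Its NCS libraries at 24 h overlapped the untreated ones, with a difference of -0.17 ± 0.054 (SE, adjusted p = 0.0167). The PSMG4 call was lost without untreated replicate 1 or NCS 24 h replicate 1 or 3, under quantile normalization and in a fit of the compared groups alone. Quantile normalization thus left 3 of 4 chaperones lower at 24 h of NCS, and the direction of all 4 was the same under both scalings.

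Last come PSMC3IP and PSMB11. PSMC3IP read 8.64, 8.74 and 8.66 in the untreated libraries, 8.85, 8.85 and 8.90 at 4 h of H2O2, 8.63, 8.69 and 8.78 at 8 h and 7.72, 7.77 and 7.71 at 24 h. Under NCS, PSMC3IP read 8.75, 8.78 and 8.78 after 4 h, 8.47, 8.55 and 8.50 after 8 h and 7.66, 7.84 and 7.81 after 24 h. PSMC3IP carries the name of its binding partner PSMC3 but acts in homologous recombination and is no proteasome subunit. All its libraries at 24 h lay below every library of the other 5 groups. It fell by 0.95 with H2O2 and 0.91 with NCS (adjusted p = 4.68e-12 and 8.97e-12), to 0.52-fold and 0.53-fold of untreated cells, both stable. The differences before were 0.19 ± 0.046 (SE, adjusted p = 0.00253) at 4 h of H2O2, stable, and -0.17 at 8 h of NCS, a call lost without untreated replicate 2. Levels of PSMB11 were -0.66, -0.66 and -0.66 without treatment, -0.66, -0.64 and -0.62 after 4 h of H2O2, -0.64, -0.63 and -0.62 after 8 h and -0.65, -0.66 and -0.66 after 24 h. In NCS-treated cells PSMB11 was at -0.64, -0.64 and -0.66, -0.66, -0.66 and -0.63 and -0.64, -0.66 and -0.66 at the same times. PSMB11, a core subunit known from thymus, was at a level where the transformation leaves almost no spread. Its call at 8 h of H2O2, for a difference of 0.028, was lost without H2O2 8 h replicate 3, with the library medians aligned and under quantile normalization.

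**Figure D3:**
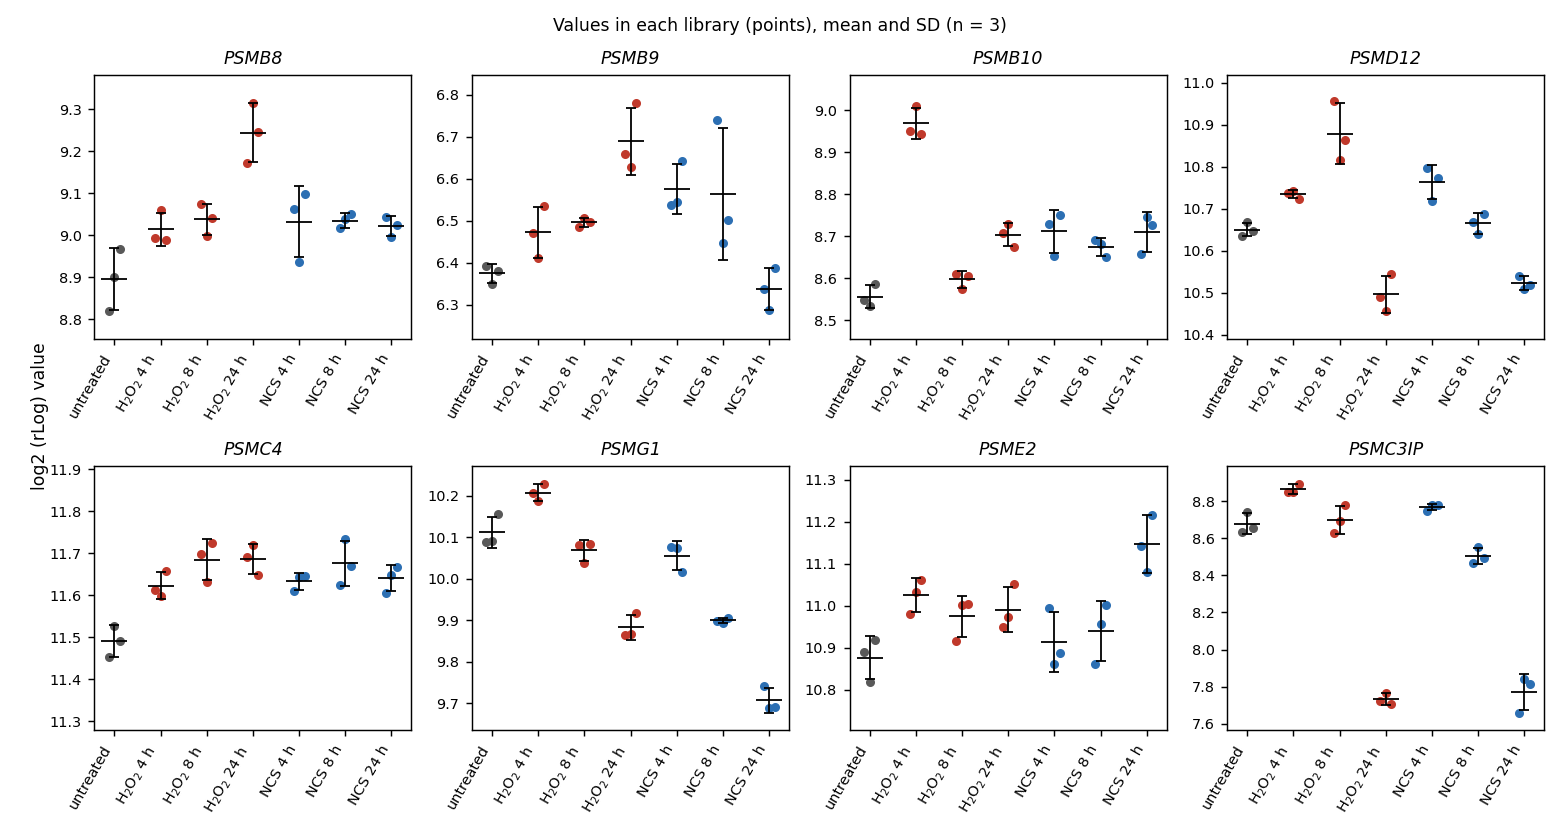
Log2 (rLog) values of 8 genes found by the rule in every library (points), with the mean and SD of each group (bars, n = 3). PSMC3IP is among them but is no proteasome subunit. Each panel has its own axis, so levels cannot be compared between genes. PSMB10 peaks at 4 h of H2O2, PSMD12 at 8 h, PSMB8 and PSMB9 at 24 h of H2O2 and PSME2 at 24 h of NCS, and PSMG1 and PSMC3IP are lowest at 24 h.

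H2O2 and NCS were compared directly at matched times. At 4 h, 16 of 48 genes were higher with H2O2 and 4 lower (26.3% and 18% of all genes), and the median of the 31 subunits was 0.070. Among genes with a mean of at least 10, 28.3% were higher and 29.6% lower, against 13 and 3 of the 39 proteasome genes. The share of higher proteasome genes was thus near that background. PSMB10 (0.26 ± 0.032, SE, adjusted p = 2.4e-06), PSMG1 (0.15) and PSMB7 (0.14) differed most upward, all stable. PSMG3 (-0.14), PSMD1 (-0.063), PSMD5 (-0.093) and PSME3 (-0.080) were lower with H2O2, of which PSME3 was stable. The PSMG3 call was lost without any 1 of 10 of the 21 libraries, under quantile normalization and without the variance trend. The PSMD5 call was lost without H2O2 4 h replicate 3 or NCS 4 h replicate 2 and under quantile normalization. The PSMD1 call was lost without H2O2 4 h replicate 1. The higher count was 8 without H2O2 4 h replicate 2 or NCS 4 h replicate 2, 9 without H2O2 4 h replicate 3 and 10 without NCS 4 h replicate 3, and the lower count was 2 without H2O2 4 h replicate 1 or 3.

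At 8 h, 8 genes were higher and 3 lower with H2O2 (18.7% and 15.4%), 10 and 3 without H2O2 8 h replicate 2. Among genes with a mean of at least 10, 32.1% were higher and 26% lower, against 6 and 3 of the 39 proteasome genes. Both shares of proteasome genes were below that background. The median of the 31 was 0.023, but -0.010 after quantile normalization, which gave 6 higher and 9 lower genes, against 10 and 1 with the medians aligned. PSMD12 (0.21 ± 0.031, SE, adjusted p = 2.56e-05), PSMC3IP (0.19), PSMG1 (0.17), PSMD14 (0.14) and PSMB2 (0.085) were stably higher. PSMC3 (-0.10), PSMD10 (-0.088) and PSME3 (-0.058) were lower, none stably. The PSMD10 call was lost without H2O2 8 h replicate 1 or NCS 8 h replicate 2, with the library medians aligned and in a fit of the compared groups alone. The PSME3 call was lost without H2O2 8 h replicate 1 or 2 or NCS 8 h replicate 2 or 3, with the library medians aligned and in a fit of the compared groups alone. The PSMC3 call was lost in a fit of the compared groups alone. The lower count was 1 without H2O2 8 h replicate 1 or NCS 8 h replicate 2, and the median of the 31 was -0.0052 without H2O2 8 h replicate 3.

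At 24 h, 5 genes were higher (10.4% of the 48) and 10 lower (20.8%), against 11% and 10.9% of all genes. Among genes with a mean of at least 10, 18.2% were higher and 27.4% lower, against 2 and 10 of the 39 proteasome genes. The share of lower proteasome genes was thus near that background. PSMB9 (0.35 ± 0.062, SE, adjusted p = 0.000377), PSMB8 (0.22 ± 0.044, SE, adjusted p = 0.001) and PSMG1 (0.18 ± 0.025, SE, adjusted p = 4.79e-05) were higher with H2O2 and PSMB5, the standard counterpart of PSMB8, was lower (-0.13 ± 0.030, SE, adjusted p = 0.00466), and these were the 4 stable calls. PSME2 (-0.16) and PSMD13 (-0.11) were among the other lower genes. The PSME2 call was lost without H2O2 24 h replicate 1 or 2 or NCS 24 h replicate 3 and in a fit of the compared groups alone. The PSMD13 call was lost without H2O2 24 h replicate 1 or NCS 24 h replicate 3 and in a fit of the compared groups alone. The median of the 31 was -0.014 and 0.014 after quantile normalization, which gave 9 higher and 4 lower genes, against 3 and 11 with the medians aligned. Without H2O2 24 h replicate 1 or NCS 24 h replicate 3 the lower count was 2, and without H2O2 24 h replicate 2 there were 3 higher and 4 lower genes. The median was 0.0028 without NCS 24 h replicate 3.

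Whether the difference between the treatments changed with time was tested as the H2O2 minus NCS difference at 24 h less that at 4 h. It was positive for 4 genes and negative for 12 (16.6% and 22.7% of all genes). PSMB9 gave 0.46 ± 0.088 (SE, adjusted p = 0.00046) and PSMB8 0.24 ± 0.062 (SE, adjusted p = 0.00461), while PSMB10, of the same particle, gave -0.26 ± 0.045 (SE, adjusted p = 0.000128). Among the 31 standard subunits 9 were negative and 0 positive. The PSMB8 call was lost under quantile normalization, which gave 7 positive and 11 negative genes.

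**Figure D4:**
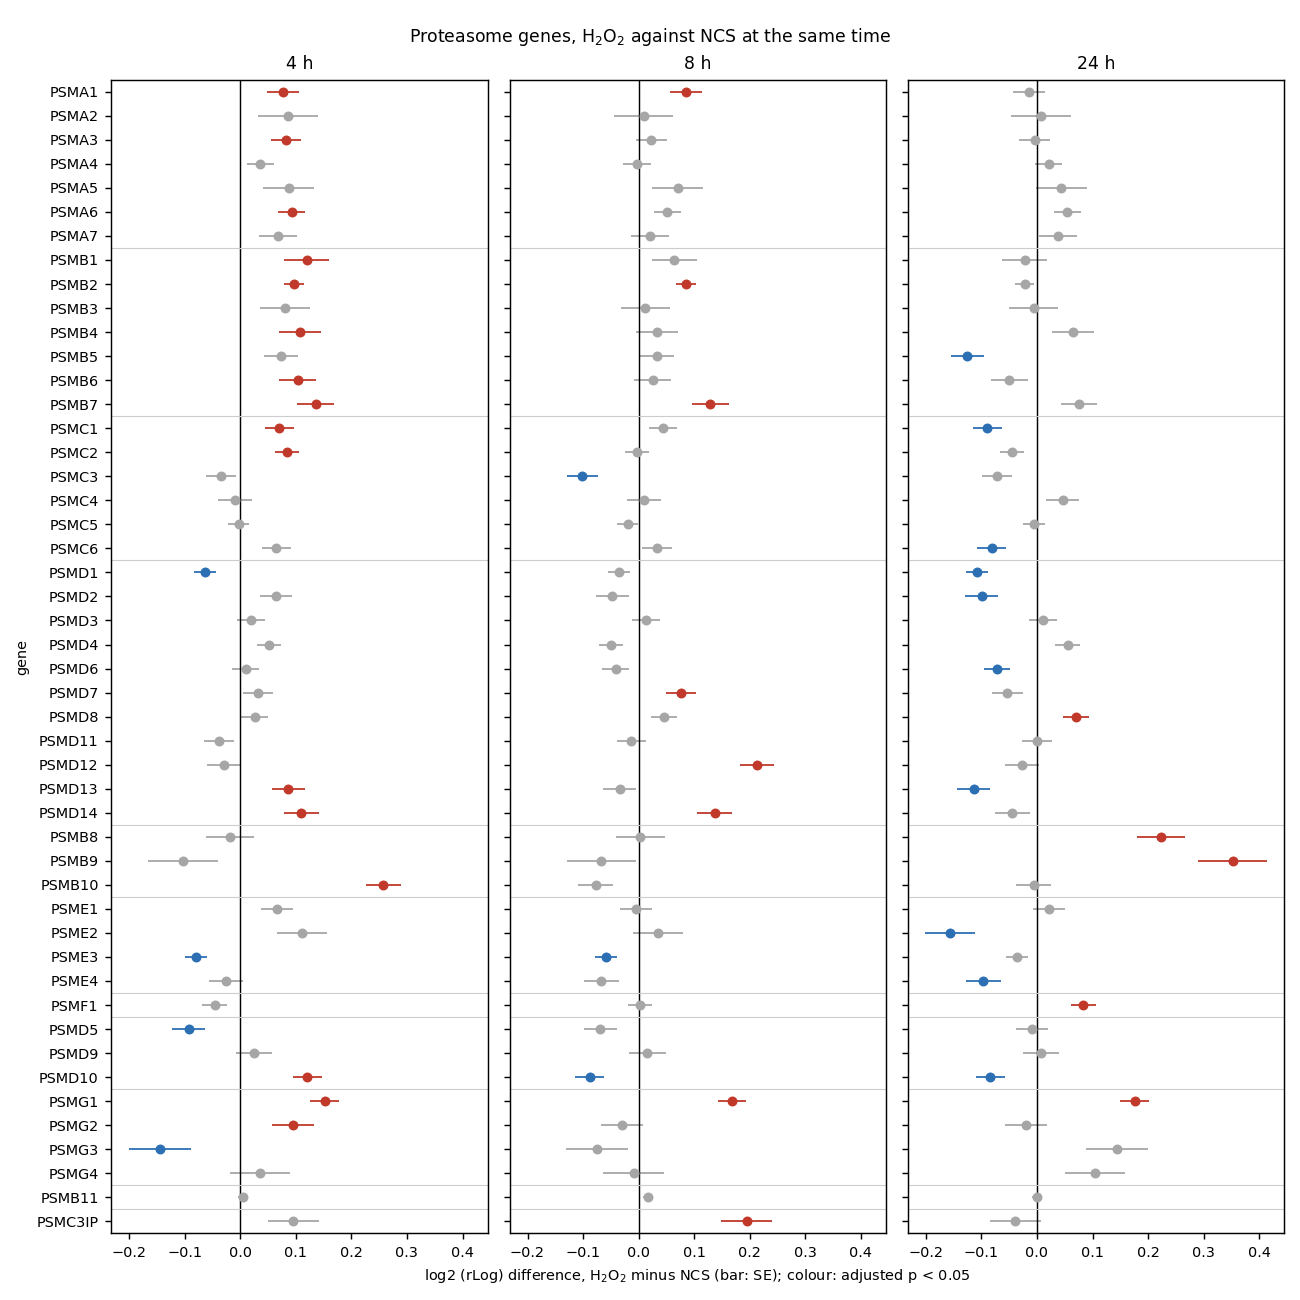
Log2 (rLog) difference between H2O2 and NCS (horizontal axis, points with SE bars) for each of the 48 genes at 4, 8 and 24 h (panels), coloured where the limma adjusted p was under 0.05, red for higher with H2O2 and blue for higher with NCS. PSMB10 stands apart at 4 h (0.26), PSMD12 at 8 h (0.21), and PSMB8 and PSMB9 at 24 h (0.22 and 0.35).

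The rest of the pathway was read from 3 further lists. Each count can be set against the shares of all genes given above with the MHC class I pathway. Among 15 genes listed as other subunits and bound proteins, the numbers higher and lower were 5 and 4 at 4 h, 8 and 4 at 8 h, 0 and 7 at 24 h of H2O2, 2 and 1 after 4 h, 1 and 5 after 8 h and 2 and 6 after 24 h of NCS. UCHL5, a deubiquitinase of the cap, fell at 24 h by 0.64 with H2O2 and 0.66 with NCS (adjusted p = 8.19e-12 and 4.52e-12), more than any true subunit. ZFAND2A, a stress-induced protein that binds the cap, was 0.57 ± 0.059 (SE, adjusted p = 4.01e-07) higher at 8 h of H2O2. PRICKLE1 was -0.48 ± 0.060 (SE, adjusted p = 2.91e-06) at 4 h of H2O2. Its link to the proteasome was not checked, and the counts of this list include it. ADRM1, a ubiquitin receptor of the cap, was higher by 0.22 at 4 h of H2O2 and the small lid subunit SHFM1 by 0.15, next to 0.11 for the median of the 31. With NCS, ADRM1 differed by 0.19 at 4 h and 0.094 at 8 h, the highest values of this list there. SHFM1 read 10.33, 10.33 and 10.34 at 4 h of NCS, against 10.28, 10.29 and 10.26 without treatment.

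Of 18 genes of the VCP segregase and substrate shuttles, the numbers higher and lower were 2 and 2 at 4 h, 3 and 4 at 8 h, 3 and 5 at 24 h of H2O2, 1 and 2 after 4 h, 1 and 5 after 8 h and 2 and 4 after 24 h of NCS. SQSTM1, the autophagy receptor p62, was 0.44, 0.71 and 0.87 higher with H2O2 (adjusted p = 1.18e-12 at 24 h). With NCS it was 0.19 higher at 4 h, 0.11 at 8 h and 0.32 at 24 h. DDI2, the protease that activates NFE2L1, was 0.46 ± 0.073 (SE, adjusted p = 5.78e-05) higher at 8 h of H2O2, and RAD23B, a shuttle of ubiquitinated proteins, was -0.32 ± 0.022 (SE, adjusted p = 1.12e-09) at 24 h. Of 15 genes of the NFE2L1 pathway the numbers were 7 and 3 at 4 h, 10 and 3 at 8 h, 7 and 3 at 24 h of H2O2, 2 and 1 after 4 h, 5 and 1 after 8 h and 8 and 1 after 24 h of NCS. This list mixes NFE2L1, the related NFE2L2 and NFE2L3 and their partners with SYVN1, FBXW7, BTRC, KEAP1 and BACH1, known to act against such factors. Its counts therefore give no direction for the pathway. NFE2L1 itself differed by -0.046, 0.066 and 0.17 with H2O2 (adjusted p = 0.041, 0.00602 and 2.65e-07) and by -0.010, -0.026 and 0.17 with NCS (adjusted p = 0.87, 0.373 and 2.1e-07). The small MAF partners MAFK, MAFG and MAFF rose by 1.09, 1.08 and 1.02 at 4 h of H2O2 (adjusted p = 1.59e-11, 7.82e-15 and 3.71e-13) and were at 0.20, 0.041 and 0.065 at 4 h of NCS. DDI2 and VCP belong to both of these lists.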

How the data were processed

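Poly(A) RNA of hTERT-HPNE cells was sequenced in 21 libraries, 3 biological replicates for each of 7 groups. The authors aligned reads with HISAT2 at default settings, counted them with htseq-count in Galaxy and transformed the counts with DESeq2, and the deposited table holds the resulting regularized log2 (rLog) values per gene symbol. The submitters' processing notes name hg19; tool versions, the annotation and the strand setting are not given in the sources used here. The authors tested their counts with DESeq2. No counts were used here, so depth is unknown and differences are shrunken values.

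Groups came from the sample labels. Rows constant in all libraries were left out, which leaves 19694 of 23368 genes. One limma 3.58.1 fit in R 4.3.3 covered the 7 groups, with a mean-variance trend in the empirical Bayes step. Benjamini-Hochberg adjustment ran over all 19694 genes, and an adjusted p under 0.05 was a call, with no limit on size. The 14 comparisons were each treatment and time against untreated cells, H2O2 against NCS at each time, the steps between times, and the change of the H2O2 minus NCS difference from 4 to 24 h. Lists and classes carry counts and medians, with no test. On simulated data for 4 h of H2O2, with 19694 genes over 10 runs, the fit recovered 85.1% of planted log2 changes of 0.25 and 99.9% of those of 0.5, with 5.32% false calls. Each run planted 100 changes of either size, only in genes with higher means and with noise independent between genes. Most differences of the proteasome genes were smaller, with a median of 0.11 over the 31 subunits at 4 h of H2O2. Recovery at their size was not measured.

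The smallest distance between any pair of libraries was 8.94 on the log2 scale, and 0 pairs were identical. Alternatives were quantile normalization, alignment of the library medians, a minimum mean of 5, a fit of the compared groups alone, no variance trend, the replicate number as a block, size limits of 0.58 and 1, and leaving out each library. The background among genes with a mean of at least 10 was added after the data were seen.

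Values in every library are given for all members of classes of at most 4 genes and, in larger classes, for the 2 highest and 2 lowest differences from untreated cells. The 3 largest rises and 3 largest falls among the calls are named, not always with library values. This was done against untreated cells and for H2O2 against NCS at each time. Lists are named by their 3 largest differences. ADRM1, SHFM1 and NFE2L1 were named outside that rule, after their values were seen. The members, classes and lists were chosen with earlier results of these data known. Gene overlaps come from GENCODE 29 and promoters from a RefSeq table, read with Python 3.11.15. One further gene list is not reported here.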

Additional observations from a re-analysis of the deposited data

Results flagged for a closer look

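For 16 of the 48 genes the difference between H2O2 and NCS was not the same at 24 h as at 4 h, by the limma test of that change itself with adjustment over all genes. It was positive for 4 (8.33%) and negative for 12 (25%), where 16.6% and 22.7% of all genes were, so that the share of negative genes was near the background and that of positive ones below it. The change is given on the log2 (rLog) scale as the H2O2 minus NCS difference at 24 h less that at 4 h.

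It was positive for PSMB9 (0.46), PSMG3 (0.29), PSMB8 (0.24) and the inhibitor gene PSMF1 (0.13). PSMB9 and PSMB8 had no call between the treatments at 4 h, with differences of -0.10 and -0.018, although every PSMB9 library at 4 h of NCS read above those of H2O2. Both read higher with H2O2 at 24 h, and PSMG3 turned from lower with H2O2 at 4 h to no call at 24 h.

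It was negative for PSME2 (-0.27) and PSMB10 (-0.26). PSMB10 was higher with H2O2 at 4 h and not called at 24 h, whereas PSME2 was called only at 24 h, as lower with H2O2. The standard core subunits PSMB5 (-0.20), PSMB6 (-0.15) and PSMB2 (-0.12) also changed this way. So did the ATPases PSMC1 (-0.16), PSMC6 (-0.15) and PSMC2 (-0.13), the non-ATPase subunits PSMD13 (-0.20), PSMD2 (-0.16) and PSMD14 (-0.15), and the base chaperone PSMD10 (-0.20).

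Under quantile normalization the calls of PSMB2, PSMB6, PSMB8, PSMD14 and PSMD2 were lost.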

How the results depend on the processing

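Of 672 member and comparison pairs, 606 kept their direction and their side of the threshold with the library medians aligned, 558 under quantile normalization, 604 in a fit of the compared groups alone, 657 without the variance trend, 656 with the replicate block and 638 of 658 with a mean value of at least 5. When each library was left out, 13596 of 14112 kept both and 403 lost the call, with fewer samples in the fit. Under quantile normalization 2 results turned round: PSMD1 gave 0.076 (limma adjusted p = 0.0324) for the change of the H2O2 minus NCS difference, and PSME3 0.051 (limma adjusted p = 0.0495) at 24 h of H2O2. The cause was not tested.

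With a limit of 0.58 on the log2 difference, 1 gene, PSMC3IP, was lower at 24 h of H2O2, at 24 h of NCS and in the steps from 8 to 24 h of each, and 0 passed in every other comparison and direction. With a limit of 1 it was 0 throughout.

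With the library medians aligned, 2 genes were lower at 4 h of H2O2, 4 higher at 4 h of NCS and 6 higher at 8 h of NCS. Between the treatments, 1 was lower with H2O2 at 8 h and 3 higher at 24 h. In the steps between times, 7 were lower from 4 to 8 h of H2O2, 0 higher from 4 to 8 h of NCS, and 6 higher and 8 lower from 8 to 24 h of NCS. Under quantile normalization, 3 genes were lower at 4 h of H2O2, 17 higher and 9 lower at 24 h of H2O2, 20 higher at 8 h of NCS and 8 lower at 24 h of NCS. Between the treatments, 9 were lower with H2O2 at 8 h, and 9 were higher and 4 lower at 24 h. From 4 to 8 h of H2O2 5 were higher, from 8 to 24 h 11 were lower, and the change of the H2O2 minus NCS difference was positive for 7. The median of the 31 standard subunits was 0.020 at 24 h of H2O2 and -0.010 for H2O2 against NCS at 8 h. A fit of the compared groups alone gave 8 higher genes at 8 h of H2O2, 4 at 4 h and 6 at 8 h of NCS, 5 higher and 0 lower with H2O2 against NCS at 8 h, and 5 lower at 24 h. With no variance trend 2 genes were lower at 4 h of H2O2, and with a mean value of at least 5, 2 were higher from 4 to 8 h of NCS.

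Left-out libraries moved some counts of called genes. Higher genes ranged from 10 to 19 at 8 h of H2O2, 2 to 9 at 4 h of NCS and 6 to 14 at 8 h of NCS, and lower genes from 1 to 3 at 4 h of H2O2. For H2O2 against NCS, higher and lower genes ranged from 8 to 19 and 2 to 4 at 4 h, 6 to 10 and 1 to 4 at 8 h, and 3 to 7 and 2 to 10 at 24 h. From 4 to 8 h of H2O2 the higher genes ranged from 2 to 4, from 8 to 24 h the lower ones from 13 to 22, and from 4 to 8 h of NCS the higher ones from 0 to 1.

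Libraries with the same replicate number were not paired by the labels. Deviations from the group means correlated at 0.027 on average over 63 pairs with the same number (-0.149 to 0.213) and at -0.014 over 126 pairs with different numbers. Of these pairs, 12 with the same number and 7 with different numbers exceeded 0.1. Of 21 libraries, 13 correlated best with their own number, and in no comparison did all 3 pairs exceed 0.1. Libraries of the same number were thus slightly more alike, and the main fit did not use the number. With the replicate block, 2 genes were lower at 4 h of H2O2 and 0 higher from 4 to 8 h of NCS. Depth is unknown, so no limit of detection can be given.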
